A study of Mus musculus with 6 samples.

Results

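Unconventional myosins were followed in newborn mouse lenses with and without the heat shock transcription factor Hsf4. The 9 genes are Myo1c, Myo1d, Myo5a, Myo5b, Myo6, Myo7a, Myo7b, Myo9b and Myo10, of 12393 genes measured, and they are read by the 17 probe sets that the platform annotation assigns to 1 of these symbols alone. A probe set is a group of short oligonucleotides against one transcript. The family was chosen by the measured difference between Hsf4-null and wild-type lenses, with Myo7b lower and Myo5b leaning lower, and the paralogs were added as a contrast. The differences of these 9 genes are therefore given as a description, without a test.

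The study hybridized 6 arrays, 3 from wild-type lenses and 3 from Hsf4-null lenses, all of newborn ICR mice and labelled as biological replicates. Each array received material amplified from 50 ng of total RNA. The labels do not say whether the lenses of several animals were pooled. In lens RNA, fewer cells of a type and less RNA per cell cannot be told apart. The Hsf4 probe set, on a log2 scale, stood at 9.09, 9.39 and 9.56 on the wild-type arrays and at 4.26, 4.09 and 3.78 on the Hsf4-null arrays, which fits the labels. Arrays of the same genotype correlated at 0.991 to 0.994, and the median log2 intensity of an array lay between 5.22 and 5.38. Of 10 measured lens markers 9 lay above these medians on every array, with αA-crystallin (Cryaa) at 14.0 in both groups. Foxe3, a transcription factor of the lens epithelium, was the dim exception. One lens marker fell, the beaded filament gene Bfsp1 (log2 difference -1.65). The mean log2 level of the 10 markers was 12.05 to 12.06 in wild-type and 11.81 to 11.84 in Hsf4-null lenses. The median log2 difference of these markers was -0.03. Their part in the differences below was not tested.

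Unconventional myosins are motors that walk along actin filaments without forming the thick filaments of muscle. A head hydrolyzes ATP and binds actin, a neck carries calmodulin or related light chains, and a tail binds membranes, cargo or other proteins. Class I myosins have a single head and tie membranes to actin, class V myosins carry vesicles, and myosin VI moves in the opposite direction to the others. Class VII and class X myosins act in actin-based protrusions, such as stereocilia, microvilli and filopodia. Lens fiber cells elongate greatly and hold a cortex of actin along their membranes.

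Of the class VII pair, Myo7b was lower in Hsf4-null lenses and Myo7a was too dim to read. Myo7b, a motor of the intestinal and renal brush border that holds the tips of microvilli together, read 8.87, 9.09 and 8.97 (log2 intensity) on the wild-type arrays. In Hsf4-null lenses the same probe set read 7.26, 8.0 and 7.35. Every Hsf4-null array lay below every wild-type array, and Hsf4-null replicate 2 was the highest of its group. The means were 8.98 ± 0.11 (SD, n = 3) and 7.54 ± 0.40 (SD, n = 3), a difference of -1.44 on the log2 scale (95% confidence interval -1.89 to -0.99) or 2.72-fold. The Myo7b probe set is the single one of the 17 that was past the call rule, a limma adjusted p under 0.05 over all probe sets, in the lower direction. Over all 22626 probe sets 1.94% were called lower, 0.72% higher and 2.66% in either direction by that rule. Because the contrast chose the family, nothing is read from this count.

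Myo7a, the paralog that works in hair cell stereocilia and in the retinal pigment epithelium, was dim. It read 4.67, 4.78 and 4.6 in wild-type and 4.65, 4.73 and 4.64 in Hsf4-null lenses. The groups overlapped, with a log2 difference of -0.01 (95% confidence interval -0.23 to 0.21). These values lie below the median of every array, so the Myo7a probe set says little about how the transcript behaved.

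**Figure D1:**
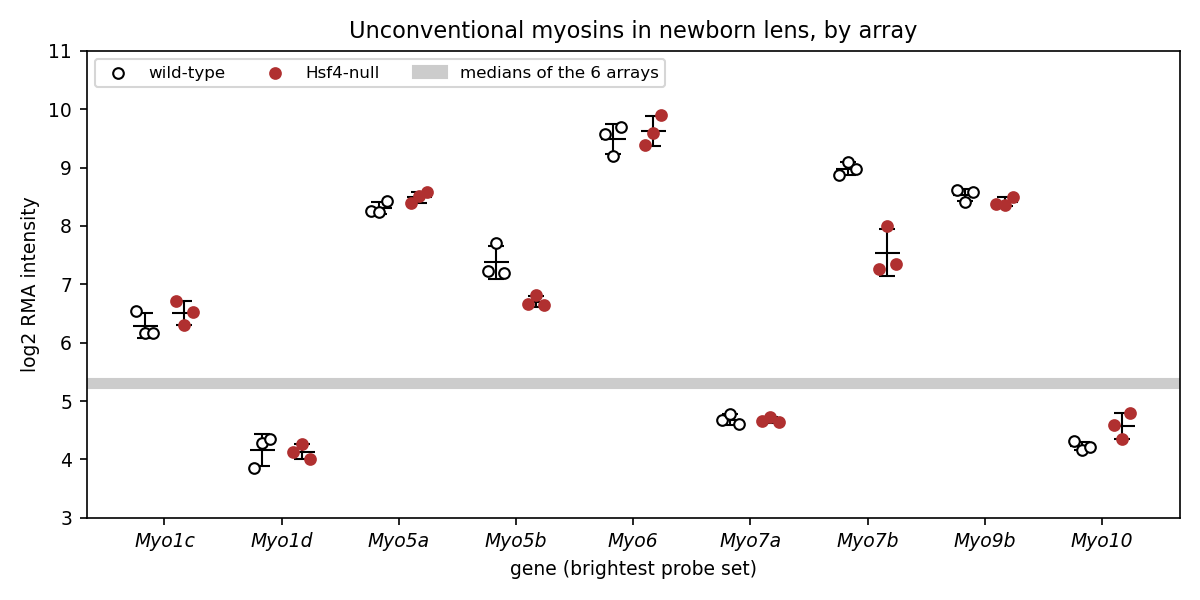
Log2 RMA intensity (vertical axis) of the brightest probe set of each of the 9 unconventional myosin genes (horizontal axis) on each array, open for wild-type and filled for Hsf4-null (3 each). Bars give the mean ± SD, with a grey band over the medians of the 6 arrays. The wild-type points of Myo7b span 8.87 to 9.09 and its Hsf4-null points 7.26 to 8.0, and Myo1d, Myo7a and Myo10 lie under the grey band.

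Among the class V myosins, Myo5b was lower in Hsf4-null lenses. Myo5b, which moves recycling endosomes with Rab11, read 7.22, 7.71 and 7.19 in wild-type and 6.66, 6.81 and 6.64 in Hsf4-null lenses. The Hsf4-null arrays lay close together and below all wild-type arrays, while wild-type replicate 2 stood above the other wild-type arrays. The means of 7.37 ± 0.29 (SD, n = 3) and 6.70 ± 0.09 (SD, n = 3) differed by -0.67 (95% confidence interval -1.02 to -0.32), or 1.59-fold. The probe set was not past the call rule. The difference was -0.50 without wild-type replicate 2.

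Myo5a, the melanosome and neuronal vesicle motor, has 2 probe sets, both above the array medians. The brighter one read 8.26, 8.24 and 8.42 in wild-type and 8.39, 8.52 and 8.58 in Hsf4-null lenses, so the groups overlapped, and its log2 difference was 0.19 (95% confidence interval -0.05 to 0.43). The other had a difference of 0.01, with wild-type arrays spread from 6.24 to 6.85. Myo5c, an epithelial class V myosin that was not among the 9, read 4.18, 4.10 and 4.10 against 4.21, 4.23 and 4.29, with groups that did not overlap but lay below the array medians (log2 difference 0.12, adjusted p = 0.60 from limma). Whether Myo5b differed from its paralogs was not tested, because it was chosen for its difference.

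Myo6, the motor of endocytic vesicles that moves toward the pointed end of actin, had a pair of bright probe sets with opposite signs. One read 9.58, 9.20 and 9.69 in wild-type and 9.39, 9.59 and 9.90 in Hsf4-null lenses, a log2 difference of 0.14 (95% confidence interval -0.27 to 0.54). The other read 9.57, 9.53 and 9.81 against 9.30, 9.47 and 9.41, with groups that did not overlap and a difference of -0.24 (95% confidence interval -0.51 to 0.02). The Myo6 transcript therefore has no single direction on these arrays. The remaining Myo6 probe set was dim, with a difference of 0.01.

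Myo9b, a class IX motor known from immune cells, varied little. It read 8.61, 8.41 and 8.58 in wild-type and 8.38, 8.35 and 8.50 in Hsf4-null lenses, with overlapping groups and a log2 difference of -0.12 (95% confidence interval -0.36 to 0.12).

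The class I members were Myo1c, which links membranes to actin and acts in exocytosis, and Myo1d, known for its part in left-right asymmetry in flies. The brightest Myo1c probe set read 6.55, 6.17 and 6.17 in wild-type and 6.71, 6.30 and 6.53 in Hsf4-null lenses. The groups overlapped, and the log2 difference was 0.22 (95% confidence interval -0.13 to 0.57). The other 3 Myo1c probe sets lay below the array medians, with differences from -0.03 to 0.17. Myo1d was dim as well, at 3.85, 4.29 and 4.35 against 4.12, 4.27 and 4.01, a difference of -0.03 (95% confidence interval -0.38 to 0.33).

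Myo10, which transports cargo to the tips of filopodia, was dim on all of its 3 probe sets. The brightest read 4.31, 4.17 and 4.22 in wild-type and 4.59, 4.35 and 4.79 in Hsf4-null lenses. These groups did not overlap, and the difference was 0.35 (95% confidence interval 0.05 to 0.64). The other 2 probe sets overlapped and had the opposite sign, at -0.19 and -0.10. The direction for Myo10 is thus not settled between its probe sets.

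Counted over the family, 9 of 17 probe sets lay below the array medians on every array and 8 did not. The Hsf4-null group lay wholly below the wild-type group for 3 probe sets (Myo7b, Myo5b and 1 of Myo6), where 11.7% of all probe sets did so. It lay wholly above for 1, a dim Myo10 probe set, where 9.37% of all did so. With each gene taken by its brightest probe set, the median log2 difference was -0.01 over the 9 genes and 0.01 over all 12393 genes. Apart from Myo7b and Myo5b, the other 7 genes ran from -0.12 to 0.35.

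**Figure D2:**
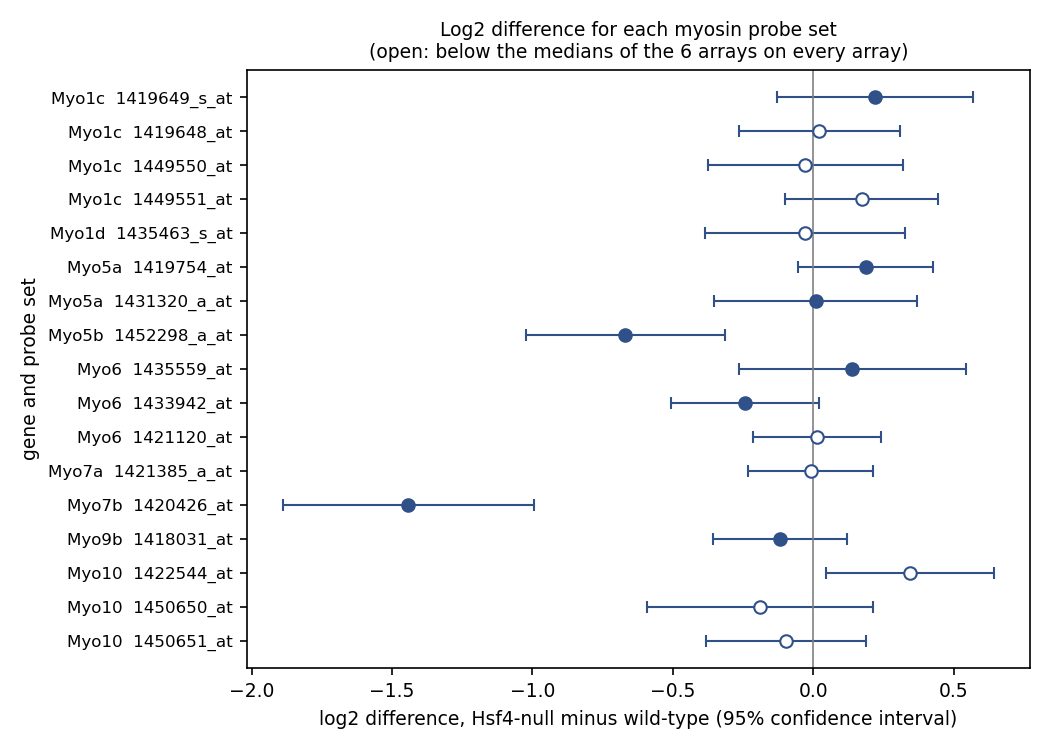
Log2 difference between Hsf4-null and wild-type lenses (horizontal axis) for each of the 17 probe sets of the 9 genes (vertical axis), with 95% confidence intervals from limma over 3 arrays per group. Open points are the 9 probe sets below the array medians on every array. Myo7b at -1.44 and Myo5b at -0.67 lie farthest to the left, and the probe sets of Myo6 and of Myo10 fall on both sides of 0.

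Markers of tissues around the lens were read beside the family, since pigment cells, retina, macrophages and muscle hold several of these motors. None of 9 pigment cell, 10 retina, 12 macrophage, 10 vascular, 10 muscle and 8 cornea and skin markers passed limma in either direction. By that rule 2.88% of all genes were called. At an unadjusted p under 0.05, 2 pigment, 3 macrophage, 3 vascular and 1 cornea and skin marker were higher, and 0 markers of these lists were lower, where 15.7% of all genes passed in one direction or the other. By the methods' t-test with Benjamini-Hochberg adjustment none passed. The mean log2 level of the pigment list ran from 5.97 to 6.84 in wild-type and from 6.61 to 7.27 in Hsf4-null lenses. Its members Tyrp1 and Pmel, both of melanosomes, had log2 differences of 1.30 and 1.27 (adjusted p = 0.232 and 0.233 from limma). They are among the largest of the pigment list, whose median log2 difference was 0.32 and whose lowest was -0.10, for Slc45a2. The macrophage list ran from 4.83 to 5.79 and from 5.39 to 6.06, the vascular list from 6.19 to 6.56 and from 6.51 to 6.66, and the retina list from 5.14 to 6.39 and from 4.91 to 6.52. Muscle markers, at 3.75 to 3.91 and 3.81 to 3.89, and cornea and skin markers, at 4.40 to 4.63 and 4.45 to 4.59, stayed near the bottom of the scale. Within the Hsf4-null group, replicate 2 had the lowest pigment (6.61), retina (4.91) and macrophage (5.39) means and the highest Myo7b. Its vascular mean (6.57) lay between those of the other Hsf4-null arrays. Within the wild-type group, replicate 3 had the lowest pigment (5.97), retina (5.14) and macrophage (4.83) means. Its Myo7b, at 8.97, lay between the other wild-type arrays. The part of these tissues in the levels of Myo5a, Myo7a and Myo7b was not tested.

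The other myosin heavy chains on the array gave no calls. Of 9 further unconventional myosins measured, 0 rose and 0 fell by limma, and 0 passed at an unadjusted p under 0.05 or by the methods' t-test with Benjamini-Hochberg adjustment. By the methods' t-test at its own unadjusted threshold, 2 were higher, Myo19, a mitochondrial myosin, and Myo5c. Over all 22626 probe sets that unadjusted test gave 1204 higher and 1708 lower, so nothing is read from these 2. Over all genes taken by 1 probe set each, 2.88% were called by limma in either direction, and 15.7% had an unadjusted limma p under 0.05. Log2 differences of this list ran from -0.30 for Myo15, the stereocilia motor, to 0.24 for Myo19, with a median of 0.01. Both of these are dim. Of the 3 above the array medians on every array, Myo18a (7.92, 8.05 and 7.96 against 7.76, 8.05 and 7.97) and Myo9a (7.15, 6.91 and 6.74 against 7.07, 7.07 and 7.22) overlapped between the groups. Myo1h did so too, at 8.50, 8.70 and 8.68 against 8.58, 8.56 and 8.36.

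The conventional, filament-forming myosins likewise had no calls. Of 10 heavy chains measured, 0 rose and 0 fell by limma, 0 passed at an unadjusted p under 0.05, and 0 passed the methods' t-test with or without adjustment. Among all genes limma called 2.88% in either direction, and 15.7% had an unadjusted p under 0.05. With so few genes, nothing is read from the absence of calls. Myh9, the non-muscle myosin IIA heavy chain, was the only one of the 10 above the array medians on every array. It read 12.42, 12.22 and 12.28 in wild-type and 12.31, 12.42 and 12.58 in Hsf4-null lenses, a log2 difference of 0.13 (95% confidence interval -0.13 to 0.38). Its dimmest probe set leaned the other way, at -0.47 (adjusted p = 0.194 from limma).

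Light chains that sit on myosin necks gave 0 calls among 13 measured genes by limma and by the methods' t-test with or without adjustment. Limma called 2.88% of all genes in either direction. With p unadjusted and under 0.05, 1 was higher and 1 lower, where 15.7% of all genes passed in one direction or the other. The higher one was Myl9, a regulatory light chain of smooth muscle and non-muscle myosin II, at 8.72, 8.22 and 7.93 against 8.98, 8.87 and 8.82 (log2 difference 0.60, adjusted p = 0.188). Without wild-type replicate 1 its difference of 0.82 passed limma. The lower one was Myl2, the dim cardiac light chain (-0.44). Calml4, the light chain that works with Myo7b in the brush border, had an interval too wide to read, at 7.40, 6.64 and 5.38 in wild-type and 7.45, 6.66 and 7.13 in Hsf4-null lenses (log2 difference 0.61, 95% confidence interval -0.46 to 1.68). Its lowest array, wild-type replicate 3, is also the one with the lowest pigment and macrophage means.

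Among the partners of class V myosins, Dynll2 fell. It encodes a dynein light chain that also binds the tail of Myo5a. Its brighter probe set read 11.61, 11.69 and 11.61 in wild-type and 11.11, 11.03 and 10.76 in Hsf4-null lenses, so that its log2 intensity fell by 0.67, with a standard error of 0.12 and a limma adjusted p of 0.0275. Its other probe set read 9.53, 10 and 9.97 against 8.64, 8.85 and 8.64 and fell by 1.12 (standard error 0.15, adjusted p = 0.00707). Both probe sets had all Hsf4-null arrays below all wild-type arrays. Dynll2 was the single call among 14 measured genes of the list, where 2.11% of all genes were called lower by 1 probe set each, and 0 genes rose.

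The call on the brighter Dynll2 probe set was lost when any one array other than Hsf4-null replicate 1 was left out, with an adjusted p of 0.0667, 0.111 and 0.0818 on leaving out replicate 1, 2 or 3 of the wild type, and of 0.071 and 0.0728 on leaving out replicate 2 or 3 of the Hsf4-null group. Adding the replicate number as a block gave 0.0635. The other probe set lost its call only by the methods' t-test with Benjamini-Hochberg adjustment (0.124) among 12 alternatives.

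Rab11a, the GTPase that recruits Myo5b to recycling endosomes, read 10.82, 10.92 and 11.06 in wild-type and 10.40, 10.82 and 10.55 in Hsf4-null lenses. Wild-type replicate 1 and Hsf4-null replicate 2 met at 10.82, and the log2 difference was -0.35 (95% confidence interval -0.65 to -0.04, adjusted p = 0.269 from limma). Its second probe set had -0.15. Rab11b, a close relative, had 0.07, and Rab27a, which carries Myo5a to melanosomes, was dim on its 3 probe sets. The median log2 difference of the 14 genes was -0.03.

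Partners of class VII myosins in Usher and brush border complexes showed no calls. Of 10 measured, 0 rose and 0 fell by limma, 0 passed at an unadjusted p under 0.05, and 0 passed the methods' t-test with or without adjustment. The shares over all genes were 2.88% by limma and 15.7% at an unadjusted p under 0.05. A list this short can lack calls at those shares, so nothing is read from the count. Log2 differences ran from -0.17 for Ush1c, the scaffold harmonin, to 0.29 for Pcdh15, a tip link cadherin. Only 2 of the 10 lay above the array medians on every array. One of them is Ezr, the membrane-actin linker ezrin, at 10.48, 10.62 and 10.66 against 10.48, 10.62 and 10.19 (log2 difference -0.16). Ush1c, at 4.48, 4.46 and 4.67 against 4.46, 4.38 and 4.25, and Vil1, the microvillar bundling protein villin, at 3.70, 3.72 and 3.53 against 3.61, 3.96 and 3.81, were dim in both groups.

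Of 6 measured cargo adaptors of myosin VI, Tom1 rose. Tom1, an endosomal adaptor, read 11.49, 11.73 and 11.61 in wild-type and 12.03, 12.24 and 12.21 in Hsf4-null lenses, with all Hsf4-null arrays above all wild-type arrays. The rise was 0.55, with a standard error of 0.11 and a limma adjusted p of 0.0468, and 0 adaptors fell, where 0.775% of all genes were called higher by 1 probe set each. The call lies close to the threshold. It was lost with each array left out in turn (adjusted p from 0.0676 without Hsf4-null replicate 1 to 0.163 without Hsf4-null replicate 3), with median centring (0.0903) and with the replicate number as a block (0.0759). A second Tom1 probe set read 10.28, 10.59 and 10.55 against 10.86, 11.18 and 10.87, a difference of 0.50 that did not pass (adjusted p = 0.124). Dab2, a clathrin adaptor, was at 8.18, 7.99 and 7.18 against 8.33, 8.04 and 8.32 (0.45, adjusted p = 0.445), again with wild-type replicate 3 lowest. Gipc1, which links Myo6 to uncoated vesicles, had -0.23 (adjusted p = 0.452).

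Folding of myosin heads needs Hsp90 with cochaperones of the UCS family, of which Unc45a was measured. By brightest probe sets neither Hsp90aa1 nor Unc45a was called by limma (0 of 2), where 2.88% of all genes were called. Of the 2, 1, Hsp90aa1, was lower at an unadjusted p under 0.05 and by the methods' t-test without adjustment. After Benjamini-Hochberg adjustment 0 passed that test. Hsp90aa1, the inducible Hsp90, had 2 of 3 probe sets that passed. They read 10.98, 11.06 and 10.98 against 10.55, 10.35 and 10.37 (fell by 0.58, adjusted p = 0.0254) and 10.78, 10.97 and 10.91 against 10.44, 10.22 and 10.33 (fell by 0.56, adjusted p = 0.037). The brightest read 11.92, 11.95 and 12.07 against 11.62, 11.84 and 11.71 (log2 difference -0.25, adjusted p = 0.293). On all 3 probe sets the Hsf4-null arrays lay below the wild-type arrays. The call at 10.98 lost its significance when any one array other than replicate 1 of the Hsf4-null group was left out, and that at 10.78 when any one array was left out, with adjusted p up to 0.108 and 0.142 over all alternatives. The Unc45a probe sets had 0.13 and -0.29 (adjusted p = 0.765 and 0.313).

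**Figure D3:**
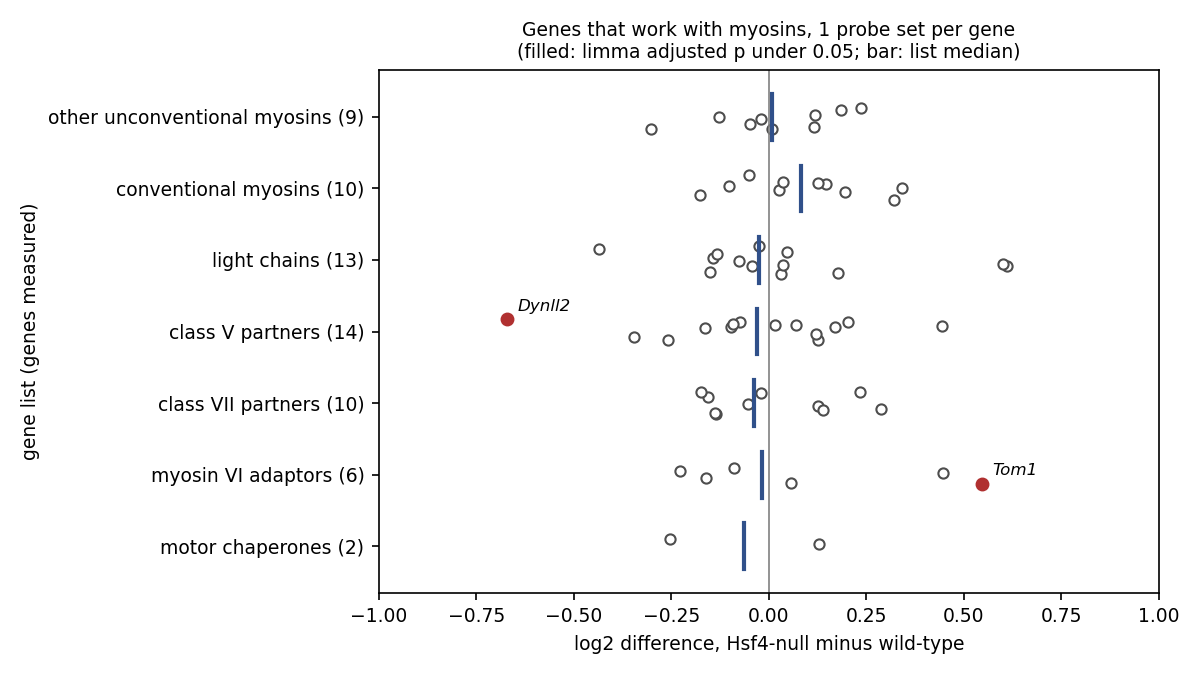
Log2 difference between Hsf4-null and wild-type lenses (horizontal axis) for the measured genes of 7 lists of myosin heavy chains and partners (vertical axis, number measured in brackets), 1 brightest probe set per gene. Filled points passed limma at an adjusted p under 0.05, open points did not, and bars are list medians. Dynll2 at -0.67 and Tom1 at 0.55 are the only filled points, and the medians lie between -0.06 and 0.08.

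The genes whose levels followed Myo7b most closely were sought among 1147 genes that varied by at least 1 log2 unit over the 6 arrays. By Pearson correlation over these arrays they were Pgap2 (r = 0.987), Tmem9b (0.987), Slc31a1 (0.984), Ngfr (0.982) and Scamp5 (0.980). The arrays share the group difference, and 155 of the 1147 genes had r above 0.9, so the values describe the ranking only. Slc31a1, the copper importer, read 10.37, 10.36 and 10.50 in wild-type and 8.70, 9.14 and 8.81 in Hsf4-null lenses. Ngfr, the low-affinity neurotrophin receptor, read 6.92, 7.12 and 7.13 against 5.75, 5.99 and 5.64. In both, as in Myo7b, Hsf4-null replicate 2 was the highest of its group. Choosing genes by correlation over these arrays favours such a shared pattern.

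For Myo5b the nearest genes were Zfp33b (r = 0.992), Alox15 (0.984), Rmc1 (0.984), Dap3 (0.984) and Cdcp1 (0.982), and 61 of the 1147 genes had r above 0.9. Dap3, a mitochondrial ribosome protein, read 9.10, 9.45 and 9.05 in wild-type and 8.43, 8.47 and 8.32 in Hsf4-null lenses. Alox15, a lipoxygenase, read 4.66, 6.22 and 5.15 against 3.20, 3.57 and 3.36. These genes share with Myo5b a wild-type replicate 2 above the other wild-type arrays. They were chosen by correlation over the same arrays, which favours such a shared pattern.

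**Figure D4:**
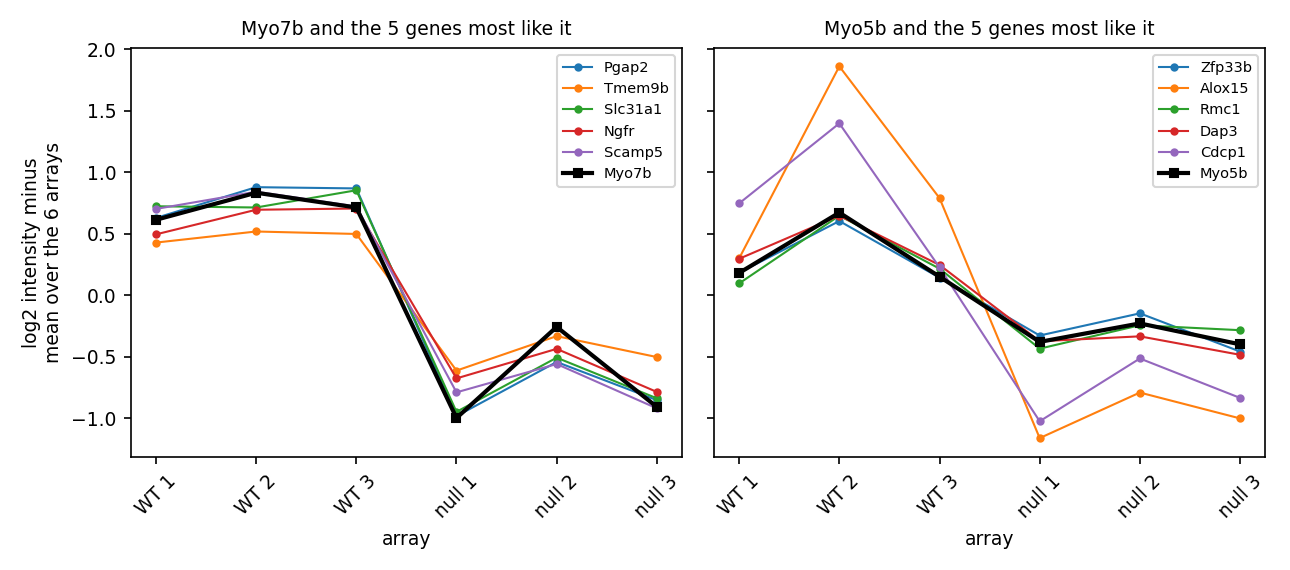
Log2 intensity minus its mean over the 6 arrays (vertical axis) on each array (horizontal axis, WT for wild-type and null for Hsf4-null) for Myo7b and for Myo5b, in black, with the 5 genes most correlated with each. Lines only join the values of one gene. Hsf4-null replicate 2 is the highest of its group for Myo7b, and wild-type replicate 2 is the highest of its group for Myo5b.

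Genes next to Myo7b, Myo5b, Myo7a and Myo5a in the RefSeq gene order were read in the same fit. Of the 10 measured genes nearest Myo7b, 5 on each side, 0 rose and 0 fell by limma and 0 passed the methods' t-test with Benjamini-Hochberg adjustment, while 1 gene in each direction had an unadjusted p under 0.05. Their log2 differences ran from -0.30 to 0.26. Beside Myo5b, Lipg, the endothelial lipase, rose by 1.98 (adjusted p = 0.0031 from limma), and 0 of the 10 fell. Beside Myo7a, Capn5, a calpain, rose by 1.29 (adjusted p = 0.0036) and 0 fell, while around Myo5a 0 rose and 0 fell by limma and by the methods' t-test after adjustment, with 0 genes higher and 1 gene lower where p was unadjusted. For comparison, limma called 2.88% of all genes in either direction, and 15.7% had an unadjusted p under 0.05. Nothing about the myosin loci is read from these neighbour counts. The single genes named here were chosen after their values were seen.

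Heat shock factors bind repeats of a short core in alternating orientation, and the promoters were searched for 2 forms of the paired core, GAANNTTC and TTCNNGAA, each of which reads the same on both strands. The RefSeq promoter table for GRCm38.p6 gives 250 bases before and 50 after each start. It holds 10 promoters for 6 of the 9 genes, Myo1c, Myo5a, Myo6, Myo7a, Myo9b and Myo10. Either form occurred in 1 of these 10 and in 15.1% of all 32851 promoters. The match lies at position -210 from a downstream start of Myo10. No promoter of Myo1d, Myo5b, Myo7b, Dynll2 or Hsp90aa1 is held there, so these genes were not searched. Tom1, the partner whose call lay close to the threshold, holds a match at position -142 from its start. The promoter of Myo5c was searched too and holds none. Whether a match goes with a difference in level was not tested. The stretches with these matches are shown to let the core be compared, each as 30 bases of the plus strand with the core in capitals.
Myo10, chr15:25752985-25753014: taaaatctttgGAAATTTCgactccttgga
Tom1, chr8:75033533-75033562: tggcgcgcactGAAGCTTCaggggcgtggc
Both hold the form GAANNTTC. A match of these letters is a description of the sequence and not a binding site, and binding was not measured on these arrays.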

How the data were processed

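Lens RNA of 3 wild-type and 3 Hsf4-null samples was hybridized to Affymetrix mouse genome arrays. The authors applied RMA (background correction, quantile normalization and a summary over probes), and each deposited intensity is the linear-scale value of a probe set on an array. No source used here names the RMA version. RMA pulls dim values together, so changes of dim transcripts are understated.

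Here log2 was taken and 64 array controls were dropped, which left 22626 probe sets. They were fitted by group alone with lmFit and eBayes of limma 3.58.1 (R 4.3.3), with Benjamini-Hochberg adjustment over all of them and a threshold of 0.05. The fit was tested on simulated data. The number of arrays limits the precision. Of these probe sets, 20380 carry 1 gene symbol, 691 several and 1555 are unnamed here. Symbols were updated through RefSeq gene identifiers (20351 probe sets). Where a gene had several probe sets, the one with the highest mean stood for it. The replicates are biological per the labels. The named genes are the 9 members, Hsf4, up to 4 called genes per list and direction, the closest paralogs, and the 5 genes most correlated with Myo7b and with Myo5b. Other genes were named after their values were seen. Members and lists were chosen with earlier results of these data known. Alternatives were the methods' t-test (SAM was not run), a second quantile normalization, centring on array medians, leaving out dim probe sets, trended and robust variance, the replicate number as a block, any probe set of a gene, and leaving out each array. One list of partner genes is not reported here.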

Additional observations from a re-analysis of the deposited data

How the results depend on the processing

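Log2 differences of the 9 genes did not change with trended and robust variance, the methods' t-test, the replicate block or dim probe sets removed. These settings leave the group means as they are. Under quantile normalization and median centring each difference moved by less than the spread between replicates. With 3 arrays per group, leaving 1 out cannot move a difference by more than that spread, so those runs are given as ranges only. With 1 array left out the sign turned for 3 genes. Myo6 ran from -0.01 to 0.26, Myo1d from -0.19 to 0.07 and Myo7a from -0.05 to 0.04. Myo1c ran from 0.12 to 0.34, Myo10 from 0.24 to 0.46, Myo5a from 0.14 to 0.24 and Myo9b from -0.18 to -0.08. The Myo7b difference ran from -1.67 without Hsf4-null replicate 2 to -1.30 without Hsf4-null replicate 1. Its probe set did not pass the methods' t-test once Benjamini-Hochberg adjusted. The Myo5b difference ran from -0.76 without wild-type replicate 3 to -0.50 without wild-type replicate 2. Calls of Myo7b and Myo5b under the alternatives are not counted, because the contrast chose both genes. Myo1d, Myo7a and Myo10 had no value without dim probe sets. Over all probe sets, 439 were lower and 163 higher. These counts became 226 to 385 and 94 to 177 with an array left out, 63 and 22 by the methods' t-test after adjustment, 1708 and 1204 by that test unadjusted, and 589 and 246 with trended and robust variance. With the replicate number as a block 268 were lower and 114 higher. Deviations of same-numbered arrays from their group means correlated at 0.29, -0.24 and -0.22. With 3 arrays per group these values cannot decide whether the numbers pair the samples, and the labels do not say.

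The single call among class V partners became 0 by the methods' t-test after adjustment and with the replicate block, and 0 to 1 with an array left out. The single call among myosin VI adaptors became 0 under those settings, under median centring, and with any array left out (0 to 0). Light chains had 0 to 1 calls with an array left out. Unadjusted, the methods' t-test gave 2 calls among other unconventional myosins and 1 among motor chaperones, which also had 1 by any probe set. The cause was not tested.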
